A study of Mus musculus with 24 samples.

Results

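Kit+ CD45- cells are compared here with Kit- CD41+ CD45- cells, across all genes, in 8 of the 24 RNA-seq libraries of a mouse embryo series: 4 libraries of each, chosen by their sample titles. Both populations were sorted as CD31+ cells from C57BL/6J mouse embryos at E10.5. All 8 came from embryos that received the control antibody, anti-human IgG, by injection into the heart, after which the embryos spent 5 h in culture (37 °C, 5% CO2) with hydrocortisone at 10 µM, IL-3 at 10 ng/ml and the antibody at 5 µg/ml, so neither population is from an untreated embryo. The other 16 libraries are Kit+ CD45+ cells under the same antibody and all 3 populations under an antibody against the Notch ligand Dll4. They share the estimate of spread, and the 8 anti-Dll4 libraries of the same 2 populations serve as a second reading of the contrast. Since the number of embryos per library is not stated, p-values here cover only the spread between these libraries, which may be technical.

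CD31 (Pecam1) is an adhesion molecule of endothelium, early blood cells and platelets. Kit is the receptor for stem cell factor and marks cells that emerge from the hemogenic endothelium of the aorta, as well as red cell precursors, mast cells and germ cells. CD41 (Itga2b) is the integrin chain that pairs with beta 3 on megakaryocytes and platelets and is also present on the earliest embryonic blood progenitors. CD45 (Ptprc) appears as blood progenitors mature. The Kit+ CD45- gate can therefore hold vascular and newly emerging blood cells, and the Kit- CD41+ gate can hold megakaryocyte lineage cells. The labels name neither by cell type.

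Library totals ran from 8718351 to 11379830 counts, with 19011 to 20474 genes detected, and levels below are CPM scaled by TMM factors. The globin genes took 16.9 to 33.7% of the counts in the Kit+ CD45- libraries and 4.18 to 9.79% in the Kit- CD41+ libraries. Kit+ CD45- replicate 1 stood apart from the other 3 of its group, with the lowest globin share (16.9%, against 27.4 to 33.7%) and the highest summed level of endothelial receptor genes (1657 CPM, against 777 to 943). Counts without it are given beside some of the lists.

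Kit and Itga2b transcripts followed the labels, which checks the sort and is no finding. Kit (chromosome 5, 75574916 to 75656722, mm10) stood at 44.8, 35.7, 34.4 and 36.5 CPM in the 4 Kit+ CD45- libraries and at 2.14, 5.22, 4.91 and 3.11 in the 4 Kit- CD41+ libraries. Itga2b (chromosome 11, 102453297 to 102470122) stood at 29.9, 60.01, 42.7 and 102 CPM against 755, 551, 488 and 366. Itga2b was thus present in every Kit+ CD45- library, at a mean of 58.6 ± 31.3 CPM (SD, n = 4). Ptprc, on whose absence both were sorted, had 3, 0, 13 and 12 counts against 0 in all 4 and was called higher (edgeR adjusted p = 0.0151), with groups that overlap at 0. Pecam1, on which both were sorted alike, stood at 253, 102, 125 and 141 CPM against 75.8, 71.1, 70.1 and 51.9 and was called higher with no overlap (log2 fold change 1.21, SE 0.28, edgeR adjusted p = 0.00201). Cdh5 (chromosome 8, 104101625 to 104144511), the VE-cadherin of endothelial junctions and no gate antigen, stood at 46.9, 27.1, 25.1 and 25.2 CPM against 0, 0.974, 1.2 and 0.111. Replicate 1 was the highest Kit+ CD45- library, and no Kit- CD41+ library came near the lowest of them. The log2 fold change of Cdh5, Kit+ CD45- minus Kit- CD41+, was 5.73 (SE 0.54, edgeR adjusted p = 3.06e-08).

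Across the genome 4357 of 15618 genes tested (27.9%) passed the edgeR quasi-likelihood test at a Benjamini-Hochberg adjusted p of 0.05. Of these, 2194 were higher in Kit+ CD45- cells (14.0% of genes tested) and 2163 lower (13.8%). This near-even split depended on the processing. Under upper-quartile scaling 2676 genes were called higher and 1844 lower, and with no filter on low counts 1700 and 2127. With the replicate number as a block over the 8 libraries alone the counts were 1495 and 1917. With globin genes left out the split stayed near even, at 2221 and 2142. The groups did not overlap for 4567 genes (29.2%), 2045 higher (13.1%) and 2522 lower (16.1%). Every count of list members below is to be read against these shares, and each list's median log2 fold change against 0.06, the median over all genes tested. Without Kit+ CD45- replicate 1 the count of genes was 3824, and without Kit- CD41+ replicate 1 it was 3535. In bulk RNA, fewer cells of a type and less RNA per cell cannot be told apart, and this holds for every list below.

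**Figure D1:**
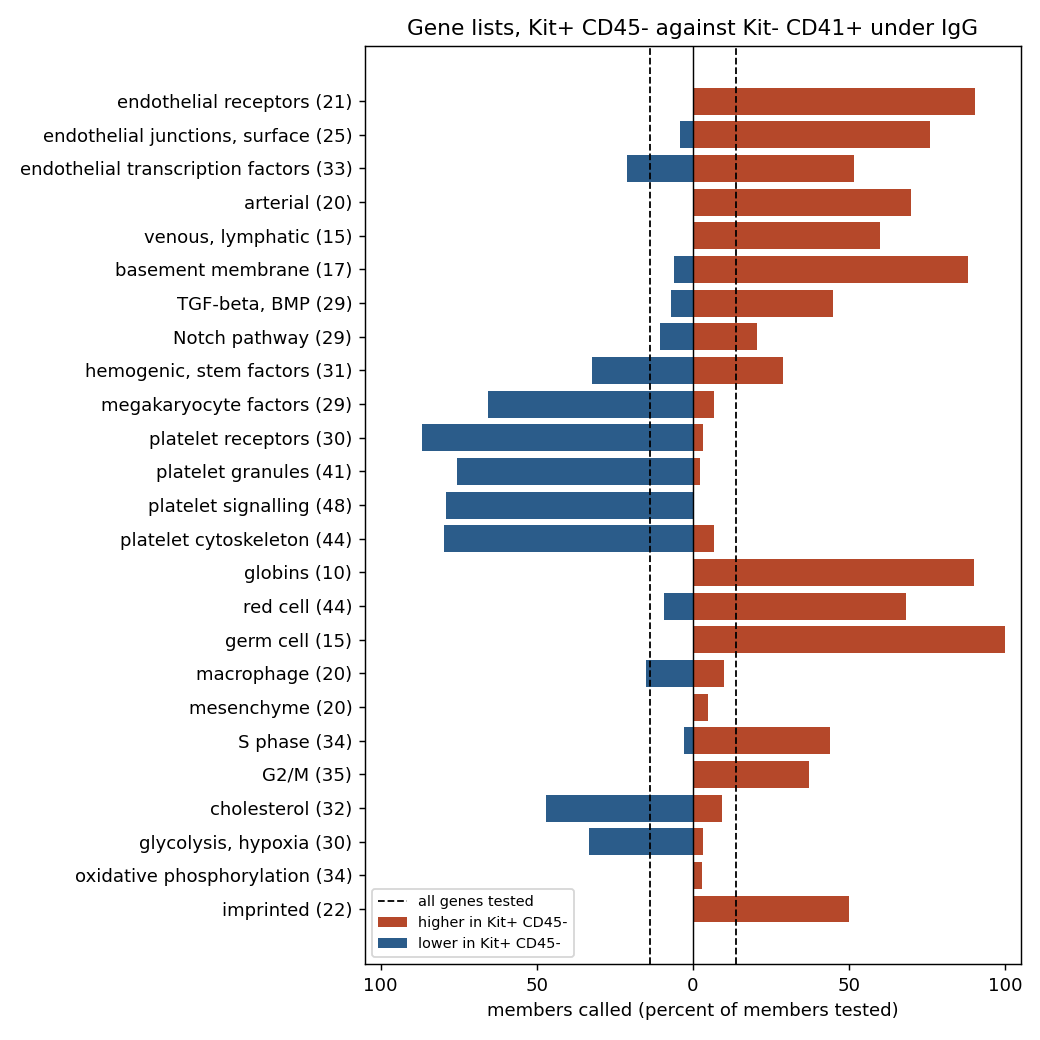
Percent of the tested members of 25 gene lists that passed the edgeR test under IgG, to the right where higher and to the left where lower in Kit+ CD45- cells; the number tested is in brackets and the dashed lines mark all genes tested (14.0% higher, 13.8% lower). Endothelial, red cell and germ cell lists lie to the right, the 4 platelet lists and the megakaryocyte factors to the left, and 1 of 34 oxidative phosphorylation genes was called.

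Red cell and endothelial lists were called mostly higher and platelet lists mostly lower. Promoters of 2 members of each are shown because GATA factors are known to act in red cells and megakaryocytes alike, and ETS factors in endothelium and megakaryocytes alike. These genes were picked by hand and need not stand for their lists. Counts over the lists follow the sequences. Each run is the sequence before the start site of the gene, 5′ to 3′ on the gene's strand, from RefSeq on GRCm38.p6, ended where the gene begins in the authors' table. Capitals mark words bound by GATA factors (AGATAA, and with another first base TGATAA) and words bound by ETS factors (CAGGAA, and with another second base CCGGAA), searched on both strands, so that a word on the other strand stands as its reverse complement. No marked word overlaps another. Alas2 (chrX:150547167-150547374, + strand) and Hbb-y (chr7:103853217-103853457, - strand) are red cell genes, Gp1ba (chr11:70638872-70639121, + strand) and Gp6 (chr7:4397745-4397994, - strand) platelet receptor genes, and Emcn (chr3:137340828-137341066, + strand) and Clec14a (chr12:58269291-58269508, - strand) endothelial surface genes.
Alas2: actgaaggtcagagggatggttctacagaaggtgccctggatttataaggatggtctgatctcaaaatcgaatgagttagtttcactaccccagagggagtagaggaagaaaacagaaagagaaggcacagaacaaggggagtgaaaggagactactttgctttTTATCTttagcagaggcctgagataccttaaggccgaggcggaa
Hbb-y: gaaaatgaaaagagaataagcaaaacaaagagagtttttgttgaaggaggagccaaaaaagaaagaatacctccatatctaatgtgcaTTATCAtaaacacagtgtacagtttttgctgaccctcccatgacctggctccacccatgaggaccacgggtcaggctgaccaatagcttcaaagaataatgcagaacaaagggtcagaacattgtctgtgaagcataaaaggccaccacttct
Gp1ba: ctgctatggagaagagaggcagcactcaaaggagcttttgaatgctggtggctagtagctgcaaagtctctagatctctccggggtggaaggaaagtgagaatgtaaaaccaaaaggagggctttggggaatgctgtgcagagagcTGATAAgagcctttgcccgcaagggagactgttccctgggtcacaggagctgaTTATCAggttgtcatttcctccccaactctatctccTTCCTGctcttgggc
Gp6: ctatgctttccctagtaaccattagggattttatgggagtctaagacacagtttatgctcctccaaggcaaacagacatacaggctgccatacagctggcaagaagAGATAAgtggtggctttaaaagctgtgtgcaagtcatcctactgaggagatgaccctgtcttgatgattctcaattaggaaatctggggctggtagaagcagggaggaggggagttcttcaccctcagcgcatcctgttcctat
Emcn: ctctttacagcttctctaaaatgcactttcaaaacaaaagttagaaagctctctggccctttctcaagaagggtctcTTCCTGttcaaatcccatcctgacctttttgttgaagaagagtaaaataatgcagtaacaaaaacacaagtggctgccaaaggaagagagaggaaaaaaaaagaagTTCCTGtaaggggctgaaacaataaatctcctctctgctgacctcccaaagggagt
Clec14a: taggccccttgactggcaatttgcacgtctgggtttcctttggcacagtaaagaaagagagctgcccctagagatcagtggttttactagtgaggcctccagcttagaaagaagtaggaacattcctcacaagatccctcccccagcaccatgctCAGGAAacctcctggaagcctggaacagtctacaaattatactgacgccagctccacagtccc
The Alas2, Hbb-y and Gp6 runs each hold 1 GATA word, the Gp1ba run 2 GATA words and 1 ETS word, the Emcn run 2 ETS words and the Clec14a run 1. In windows of 300 bases, which add 50 bases after the start, a GATA word stood in 18 of the 103 promoters found for the 128 platelet list genes called lower (17.5%), and in 18.6% of all 32851 promoters of the RefSeq table. An ETS word stood in 46 of those 103 (44.7%) and in 41.4% of all. Among the 1531 promoters found for the 1903 protein-coding genes called lower (80.5%), 11.2% held a GATA word and 50.8% an ETS word. Among the 10481 promoters found for the 13166 protein-coding genes tested, 10.3% held a GATA word and 47.5% an ETS word. Their coverage of 79.6% is under the minimum of 80% set for such a check, so these shares are void. Promoters were found for 31 of 39 red cell and globin list genes called higher, which is 79.5% and under the minimum of 80% set for such a check, so a share for that list is void; 16 of the 31 held a GATA word. The same holds for the endothelial lists, with 32 of 55. A match is a string of letters and no evidence that a factor binds there.

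Endothelial receptors and junction genes were higher in Kit+ CD45- cells. Of the 21 receptors, 19 were called higher and 0 lower, and the list had a median log2 fold change of 3.00. Ramp2 (chromosome 11, 101246028 to 101259546), the partner protein that makes Calcrl a receptor for adrenomedullin, stood at 307, 179, 205 and 196 CPM in Kit+ CD45- libraries and at 1.45, 10.4, 9.42 and 5.55 in Kit- CD41+ libraries. The groups were far apart, and its log2 fold change was 5.05 (SE 0.38, edgeR adjusted p = 2.01e-09). Calcrl itself differed less, at 54.6 ± 4.4 CPM against 10.3 ± 2.1 (SD, n = 4). Aplnr, the apelin receptor of venous and angiogenic endothelium, stood at 84.1, 31.3, 30.5 and 37.8 CPM against 0, 1.06, 1.5 and 0. Flt4, the receptor for Vegfc, stood at 11.8, 8.88, 14.3 and 16.1 CPM against 0.0855, 0, 0 and 0, where 0.0855 CPM is a single count. The Vegfa receptors Kdr (log2 fold change 1.05) and Flt1 (2.18) were also called higher, as was Plxnd1, a semaphorin receptor (2.77). Tie1 (0.29) and S1pr3 (0.46) were not called.

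Of 25 junction and surface genes, 19 were called higher and 1 lower (median 3.33). Cldn5, the tight junction claudin of endothelium, stood at 245, 136, 150 and 111 CPM against 0, 4.96, 4.01 and 0. Emcn, a sialomucin whose promoter is shown above, stood at 524, 220, 243 and 251 CPM against 0, 19.6, 8.21 and 0.777. In both genes replicate 1 was the highest Kit+ CD45- library and the lowest Kit- CD41+ library was at 0. Cd93 and Icam2 followed, at 76.9 ± 5.99 against 4.27 ± 3.42 CPM and at 114 ± 32.8 against 13.7 ± 8.19 (SD, n = 4). Some genes counted as pan-endothelial did not separate the populations: Esam had a log2 fold change of 0.13, Egfl7 of 0.07 and Jam3 of 0.13, and none was called. The member called lower was Vwf, the von Willebrand factor that endothelium and megakaryocytes both make. It stood at 26.6, 33.2, 26.2 and 43.7 CPM against 174, 143, 159 and 131 (log2 fold change -2.23, SE 0.27, edgeR adjusted p = 1.24e-06). Without Kit+ CD45- replicate 1 the receptors had 18 called higher and the junction genes 18 higher and 1 lower.

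**Figure D2:**
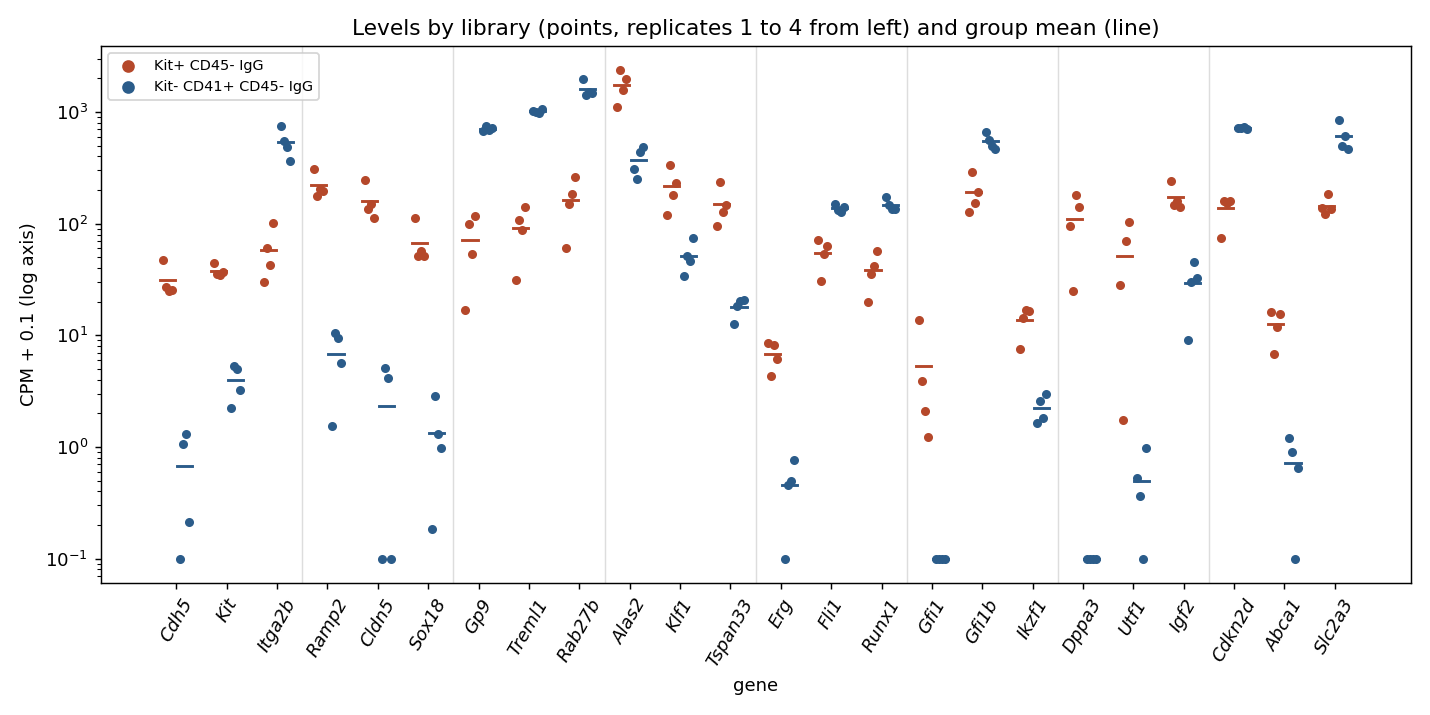
Level of 24 genes in each of the 8 IgG libraries, as CPM + 0.1 on a log axis; points are replicates 1 to 4 from left to right and lines are group means. The groups do not overlap for any gene shown, and Kit+ CD45- replicate 1 is the highest of its group for Cdh5, Cldn5 and Sox18 and the lowest for Gp9, Treml1 and Alas2.

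Transcription factors of endothelium split into those higher and those lower in Kit+ CD45- cells. Of 33, 17 were called higher and 7 lower (median 1.91), and without Kit+ CD45- replicate 1 these were 14 and 6. The Sox F factors were higher: Sox18 stood at 112, 50.9, 56.7 and 51.7 CPM against 0.0855, 2.75, 1.2 and 0.888, with log2 fold changes of 5.76 for Sox18 (SE 0.55, edgeR adjusted p = 3.95e-08), 5.12 for Sox7 and 4.21 for Sox17. The ETS factors Elk3 (3.97), Ets1 (3.07) and Erg (4.25) were called higher. Erg stood at 8.39, 4.24, 8.07 and 6.04 CPM against 0, 0.354, 0.401 and 0.666. Its close relative Fli1, an ETS factor that endothelium and megakaryocytes share, went the other way, at 72.0, 30.9, 53.7 and 63.6 CPM against 150, 134, 127 and 140 (log2 fold change -1.32, SE 0.21, edgeR adjusted p = 3.96e-05). The other 6 called lower were Etv6, Gata2, Lmo2, Lyl1, Mef2c and Tal1, and each of these factors also acts in blood formation. Their log2 fold changes ran from -1.30 (Lyl1) to -0.66 (Tal1). Tal1 (edgeR adjusted p = 0.0426) lost its call without any of Kit+ CD45- replicates 1 and 3 and the 4 Kit- CD41+ replicates (up to 0.15), Gata2 without Kit+ CD45- replicate 3 (0.051) and Etv6 without Kit- CD41+ replicate 1 (0.057).

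Lists of arteries, veins and matrix were called mostly higher. Of 20 arterial genes 14 were called higher and 0 lower (median 2.59), and of 15 venous and lymphatic genes 9 were higher and 0 lower (median 1.39; 7 without Kit+ CD45- replicate 1). Efnb2, the ephrin of arterial endothelium, stood at 29.5, 12.03, 13.8 and 12.8 CPM against 2.05, 2.75, 3.41 and 2.88, and its venous receptor Ephb4 at a mean of 12.3 against 2.25. The connexins Gja4 (log2 fold change -0.42) and Gja5 (-0.17), both arterial, were not called. Igfbp3, an insulin-like growth factor binding protein, stood at 147 ± 83.2 CPM against 3.87 ± 2.74 (SD, n = 4). Of 17 basement membrane genes 15 were called higher and 1 lower (median 3.15). The collagen chain Col4a1 stood at 119, 85.6, 110 and 99.6 CPM against 15.3, 11.9, 13.6 and 5.55 (log2 fold change 3.15, SE 0.24, edgeR adjusted p = 2.01e-09), and Fn1, fibronectin, at 92.9 ± 24.3 against 11.6 ± 4.07. Mmrn1, a multimerin stored in platelet granules, was the member called lower (-1.93).

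Notch components were mixed. In the Notch pathway a ligand on a cell binds the receptor of its neighbour, which proteases of the receiving cell then cut and so activate, and the pathway directs arterial identity and the emergence of blood stem cells from the aorta. Of 29 pathway genes 6 were called higher and 3 lower, with a median of 0.01. The ligand Dll4 stood at 22.9, 7.93, 9.75 and 7.8 CPM against 0, 0.708, 0.1 and 0, and the receptor Notch1 at 16.8, 10.1, 11.5 and 9.31 against 0.77, 2.48, 1.4 and 2.11. Notch4, Jag1, Jag2 and the glycosyltransferase Mfng were also called higher. Among the members called lower were Psen2 (-1.85), a presenilin of gamma-secretase, and Adam10 (-0.40), the sheddase, both of the proteolytic steps. The Adam10 call (edgeR adjusted p = 0.0261) was lost under upper-quartile scaling (0.11) and without any of Kit+ CD45- replicates 1 and 4 and Kit- CD41+ replicates 1, 3 and 4 (up to 0.079). Among 18 Notch target genes 6 were called higher and 3 lower. Hes1 stood at 79.9, 45.4, 83.8 and 45.9 CPM against 6.16, 21.7, 29.6 and 14.2, and Hes7 at 2.95, 2.19, 2.8 and 3.52 against 23.1, 19.8, 20.6 and 14.9, so these 2 members of the same repressor family moved in opposite directions with no overlap.

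Of 29 TGF-beta and BMP genes 13 were called higher and 2 lower (median 0.74; 9 and 3 without Kit+ CD45- replicate 1). The receptors led. Tgfbr2 stood at 25.8, 8.88, 13.9 and 14.1 CPM against 0.941, 0.885, 1.5 and 0.333 (log2 fold change 4.07, SE 0.39, edgeR adjusted p = 3.82e-08), and the endothelial type 1 receptor Acvrl1 had a log2 fold change of 4.98, while Tgfbr1 (0.22) and Bmpr1a (0.07) were not called. Bmp2 stood at 12.7, 4.65, 1.68 and 3.78 CPM against 0.428, 0.62, 0.601 and 0.555, whereas Bmp4 (-0.84) was not called. The ligand Tgfb1, which platelets store, stood at 70.6, 85.3, 65.2 and 94.9 CPM against 453, 339, 293 and 240, and it and Ltbp1, its binding protein, were the 2 called lower.

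Guidance and vascular signalling genes had 17 of 45 members called higher and 4 lower (median 0.87). Efna1 stood at 143 ± 46.5 CPM against 11.6 ± 7.84, Edn1, endothelin, at 16.5 ± 9.32 against 0.68 ± 0.977, and Adm, adrenomedullin, at 178, 108, 174 and 99.6 CPM against 2.48, 22.0, 16.7 and 9.99. Adm, Calcrl and Ramp2, a ligand and the 2 parts of its receptor, were thus all higher. The angiopoietins moved apart: Angpt2 stood at 5.26, 6.42, 9.3 and 7.3 CPM against 0.941, 0.62, 1.9 and 0.555, and Angpt1 at 19.6, 22.3, 22.9 and 34.9 against 79.0, 58.1, 63.3 and 73.8. Kitl, the ligand of Kit, was higher with the receptor, at 32.4, 10.7, 17.9 and 19 CPM against 2.74, 2.57, 3.61 and 1.33.

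Factors of hemogenic endothelium and stem cells were called in both directions, 9 of 31 higher and 10 lower (median -0.19). Runx1, the factor required for blood cells to emerge from endothelium, stood at 19.7, 35.0, 41.8 and 56.3 CPM against 172, 148, 136 and 137 (log2 fold change -1.96, SE 0.24, edgeR adjusted p = 1.6e-06), and its partner Cbfb was called higher (0.86). Gfi1, the repressor that acts with Gfi1b in that transition, had 149, 28, 18 and 9 counts in the Kit+ CD45- libraries and 0 in each Kit- CD41+ library, at least 17.9-fold higher when each of those 4 is set to the floor of 3 counts and at least 8.05-fold without Kit+ CD45- replicate 1, the highest library. Gfi1b stood at 128, 290, 152 and 192 CPM against 665, 566, 492 and 469, lower with no overlap. Hlf and Mecom, factors of stem cells, were called higher: Mecom stood at 29.5, 13, 17.5 and 18 CPM against 1.54, 4.87, 3.31 and 2.77, and Hlf at 2.12 ± 0.981 against 0.0751 ± 0.15 (SD, n = 4). Ikzf1, a lymphoid and progenitor factor, stood at 7.47, 14.1, 16.9 and 16.4 CPM against 1.54, 2.48, 1.7 and 2.88. Meis1 (-1.78), which binds DNA with Hox proteins, and Nfe2 (-1.80) were called lower, and Spi1 (-0.14) and Myb (1.26) were not called.

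Surface genes of stem and progenitor cells had 10 of 28 members called higher and 5 lower (median 0.96, and 0.46 without Kit+ CD45- replicate 1). Kit, on which the cells were sorted, is among the 10. Cd34 stood at 328 ± 144 CPM against 26.1 ± 14.2 and Procr, the endothelial protein C receptor, had a log2 fold change of 3.12. Flt3, a receptor of early progenitors, had 39, 2, 9 and 5 counts against 0 in all 4, at least 4.77-fold higher, and at least 2.21-fold without Kit+ CD45- replicate 1. Slamf1, a surface receptor of the SLAM family, stood at 0, 20.1, 9.75 and 32.6 CPM against 104, 149, 117 and 125, with Kit+ CD45- replicate 1 the lowest library. The Slamf1 call (log2 fold change -3.00, edgeR adjusted p = 0.00602) was lost under DESeq2 (adjusted p = 0.063). Adgrg1, Angpt1 and Ctla2a were also called lower.

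Most tested genes of megakaryocytes and platelets were called lower. Megakaryocytes form platelets under Gata1, Nfe2, Fli1, Runx1 and Gfi1b, load them with alpha and dense granules, and equip them with receptors for collagen, von Willebrand factor, thrombin and ADP whose signals open the integrin of Itga2b and Itgb3. Of 29 factors of the lineage 19 were called lower and 2 higher (median -1.10). Nfe2 stood at 66.7, 159, 127 and 177 CPM against 522, 444, 467 and 404 (log2 fold change -1.80, SE 0.22, edgeR adjusted p = 1.73e-06). Gata1, which red cells and megakaryocytes share, stood at 89.3, 197, 132 and 176 CPM against 448, 380, 413 and 324 and missed the threshold though the groups did not overlap (log2 fold change -1.40, SE 0.53, edgeR adjusted p = 0.0518). The 2 called higher were Cbfb and Klf1, the latter a factor of the red cell branch.

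Of 30 platelet receptor genes 26 were called lower and 1 higher (median -3.06). Gp9 (chromosome 6, 87778072 to 87779768), a subunit of the von Willebrand factor receptor, stood at 16.8, 99.1, 52.9 and 116 CPM in Kit+ CD45- libraries and at 675, 749, 696 and 724 in Kit- CD41+ libraries (log2 fold change -3.32, SE 0.44, edgeR adjusted p = 3.84e-06). The other subunits fell by similar amounts, Gp1ba by 3.36, Gp1bb by 3.28 and Gp5 by 3.23 on the log2 scale, as did Gp6, the collagen receptor, by 3.22. Treml1, a receptor held in alpha granules, stood at 31.0, 109, 87.5 and 142 CPM against 1032, 1011, 990 and 1059. In each of these genes Kit+ CD45- replicate 1 was the lowest library and no Kit+ CD45- library reached any Kit- CD41+ library. Clec1b, the podoplanin receptor that separates lymph from blood vessels, varied less, at 135, 188, 154 and 181 CPM against 878, 1046, 1049 and 1212 (log2 fold change -2.67, SE 0.17, edgeR adjusted p = 4.66e-10). The ADP receptor P2ry12 stood at 0, 7.66, 0 and 1.26 CPM against 16.1, 32.2, 13.2 and 30.1. The member called higher was Cd36, a fatty acid and thrombospondin receptor that endothelium also makes, at 11.8, 8.06, 7.73 and 8.43 CPM against 0, 1.5, 1.2 and 0.777.

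Of 41 granule genes 31 were called lower and 1 higher (median -1.78). The alpha granule chemokine Pf4 (chromosome 5, 90772435 to 90773383) stood at 371, 1452, 1447 and 1918 CPM against 11270, 12340, 14310 and 16010, and Thbs1, thrombospondin, at 98.2, 131, 113 and 199 against 1112, 1279, 1148 and 1278. Their log2 fold changes were -3.38 (SE 0.70) and -3.15 (SE 0.40). Ppbp, a neighbouring chemokine gene, stood at 5.9, 692, 344 and 525 CPM against 1898, 3868, 2914 and 4642; its call (-3.09, SE 1.10, edgeR adjusted p = 0.0391) was lost when any single library of the 8 was left out (adjusted p of 0.057 to 0.099). Rab27b, which moves granules to the membrane, stood at 60.8, 151, 183 and 264 CPM against 1986, 1435, 1510 and 1478. The member called higher was Sparc (3.34), a matrix protein that endothelium also makes. The Hermansky-Pudlak genes Hps1 (-0.70), Hps3 (0.09), Hps5 (0.15) and Hps6 (-1.30) and the vesicle protein Vamp8 (-0.06) were not called.

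Of 48 signalling genes 38 were called lower and 0 higher (median -1.91), and of 44 cytoskeletal genes 35 lower and 3 higher (median -1.93). The small GTPase Rap1b stood at 611, 1358, 1492 and 1701 CPM against 8818, 8297, 8517 and 8531, and Rasgrp2, the exchange factor that loads it, at 35.6, 97.6, 83.4 and 104 against 672, 678, 744 and 753. Alox12, the platelet lipoxygenase, stood at 38.2, 83.0, 75.5 and 154 CPM against 997, 934, 738 and 743, and Tubb1, the tubulin of the platelet rim, at 25.1, 67.1, 39.6 and 112 against 634, 550, 414 and 422. The links from integrins to actin were among the best resolved: Tln1, talin, had a log2 fold change of -2.19 (SE 0.14), Ilk of -2.16 (SE 0.14) and Lims1 of -2.27 (SE 0.14). The 3 cytoskeletal members called higher were the focal adhesion genes Pxn (1.77) and Parva (1.78) and the red cell ankyrin Ank1 (1.96). Without Kit+ CD45- replicate 1 the counts lower in the 4 platelet lists were 26, 30, 38 and 36.

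Few platelet genes called lower under IgG had a log2 fold change below -3.6. The edges of the ranges below were set by hand, and a bound on the falls was not tested. Over the 4 platelet lists 128 of 161 genes tested were called lower; 38 of the 128 had a log2 fold change between -3.6 and -2.9, 39 between -2.9 and -2, 36 between -2 and -1, 13 between -1 and 0, and 2 lay below -3.6. Among all genes that reached 20 CPM in their higher group, 49 were called higher by more than 4 on the log2 scale and 1 lower by more than 4, while at more than 1 the counts were 467 and 782. Under anti-Dll4 the counts past 4 were 29 higher and 59 lower. Kit+ CD45- libraries held a summed platelet receptor level of 1543 to 2743 CPM, against 14940 to 15300 in Kit- CD41+ libraries.

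**Figure D3:**
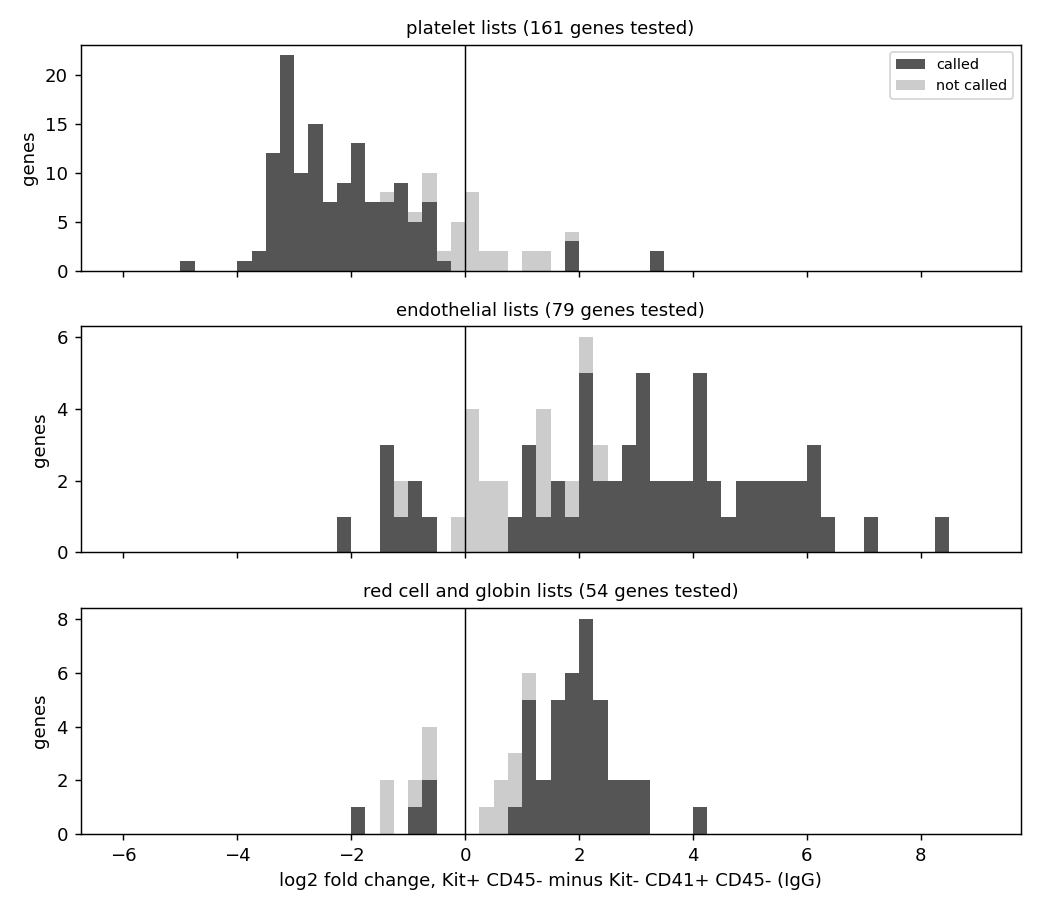
Number of genes by log2 fold change (Kit+ CD45- minus Kit- CD41+, IgG, bins of 0.25) in the platelet lists, the endothelial lists and the red cell and globin lists, with called genes dark and the others pale. Few platelet genes called lower lie below -3.6, endothelial genes called higher spread from 0.97 to 8.48, and red cell genes peak near 2.

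The largest falls among genes with at least 20 CPM included many outside the lists. Il20ra, a cytokine receptor chain, stood at 0, 0.273, 1.23 and 4.03 CPM against 36.3, 23.0, 23.9 and 26.5 (log2 fold change -4.34, SE 0.76, edgeR adjusted p = 0.000127) and was the gene that passed 4. Ly6g6f, a platelet membrane protein, stood at 17 ± 8.15 CPM against 201 ± 11.7, its neighbour Ly6g6c at 2.6 ± 2.37 against 36.7 ± 2.94, and Tmem40 at 57.3 ± 29.4 against 640 ± 59.7 (SD, n = 4). Tesc, Cxcl5, Ajap1, Ampd1, Clec4g, Rab36, Gstt1, Kcna3, Slpi, Treml1 and P2ry12 complete the 15, with log2 fold changes between -3.97 and -3.44. The 15 largest rises were of another kind. They included genes of germ cells or pluripotent cells, among them Dppa3, Rhox9, Rhox6, Dppa5a and Utf1. Also included were 5 endothelial list members (Cldn5, Aplnr, Adgrl4, Clec14a and Sox18), and Nts, Tdh, Tm4sf1, Kcne3 and Klhl4 complete the 15. Nts, neurotensin, stood at 14.1, 22.1, 18.5 and 30.2 CPM against 0.0855, 0, 0 and 0, and Kcne3, a potassium channel subunit, at 110, 76.0, 70.6 and 44.2 against 0, 1.42, 0.1 and 0.111. Neither had an overlap between groups.

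Red cell genes were higher in Kit+ CD45- cells. At this age red cells of the yolk sac, which still carry nuclei and RNA, circulate in the embryo. Of 10 globin genes 9 were called higher and 0 lower (median 2.16), and of 44 other red cell genes 30 were called higher and 4 lower (median 1.5; 33 and 1 without Kit+ CD45- replicate 1). The embryonic globin Hbb-y (chromosome 7, 103851749 to 103853216) stood at 66650, 192800, 153900 and 132800 CPM against 18050, 18270, 34930 and 44820 (log2 fold change 2.23, SE 0.49, edgeR adjusted p = 0.00132). Alas2, the red cell enzyme that starts heme synthesis, stood at 1106, 2364, 1583 and 1970 CPM against 311, 252, 439 and 488 (2.24, SE 0.35, edgeR adjusted p = 3.23e-05). In both genes replicate 1 was the lowest Kit+ CD45- library. Hba-a1 and Hba-a2 are nearly identical copies, as are Hbb-bs and Hbb-bt, and how reads were divided between them is not given in the sources used here.

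Not all red cell genes kept to that size. Tspan33, a tetraspanin of red cell precursors, stood at 95.3, 236, 127 and 148 CPM against 12.6, 18.2, 20.03 and 20.6 (log2 fold change 3.08, SE 0.33, edgeR adjusted p = 2.51e-07), and Klf1 at 119, 335, 181 and 233 against 34.2, 51.3, 46.7 and 75.0. The band 3 anion exchanger Slc4a1 (3.12) and the iron exporter Slc40a1 (3.28) were as high, whereas the heme enzymes Urod (1.04) and Uros (1.05) moved less. The 4 called lower were Epb41 and Gypc, membrane skeleton genes, and Nfe2 and Tal1, which megakaryocytes share. The Epb41 and Gypc calls were lost without Kit+ CD45- replicate 1 (edgeR adjusted p = 0.058 and 0.096) and without Kit- CD41+ replicate 1 (0.070 and 0.058), Epb41 also without Kit- CD41+ replicate 3 (0.052) and Gypc without Kit+ CD45- replicate 3 (0.060). The share of the globin genes moved with this list, and its part in the other results was not tested; with all globin genes left out before scaling, 4363 genes were called.

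Germ cell genes stood far apart. All 15 tested of the 17 listed were called higher, with a median of 5.09; several passed the filter on low counts only through libraries in which they are high, so the count of 15 is a description. Primordial germ cells carry Kit and lie near the dorsal aorta at this age, and Kit is itself a member of the list and of the gate. Dppa3 (chromosome 6, 122626410 to 122630272), a maternal and germ line factor, had 1036, 183, 1621 and 1124 counts in the Kit+ CD45- libraries and 0 in each Kit- CD41+ library, at least 384-fold higher. Pou5f1, the pluripotency factor Oct4, had 196, 10, 114 and 109 counts against 0 in all 4, at least 39.8-fold higher, and the X-linked homeobox genes Rhox9 and Rhox6 were at least 139-fold and 115-fold higher. Without Kit+ CD45- replicate 4 the bound for Rhox6 was 67.2-fold and that for Rhox9 94.8-fold. Utf1, a chromatin factor of pluripotent cells, stood at 28.1, 1.64, 70.4 and 103 CPM against 0.428, 0.266, 0 and 0.888. The libraries were not alike: replicate 2 was the lowest for Dppa3, Pou5f1 and Utf1 and replicate 4 the highest for Utf1 and Rhox9. The summed level of the list was 118.7 to 673.9 CPM in Kit+ CD45- libraries and 8.13 to 25.9 in Kit- CD41+ libraries. Dazl, a later germ cell gene, did not pass the filter on low counts, with 0, 18, 1 and 7 counts against 2, 1, 1 and 11.

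**Figure D4:**
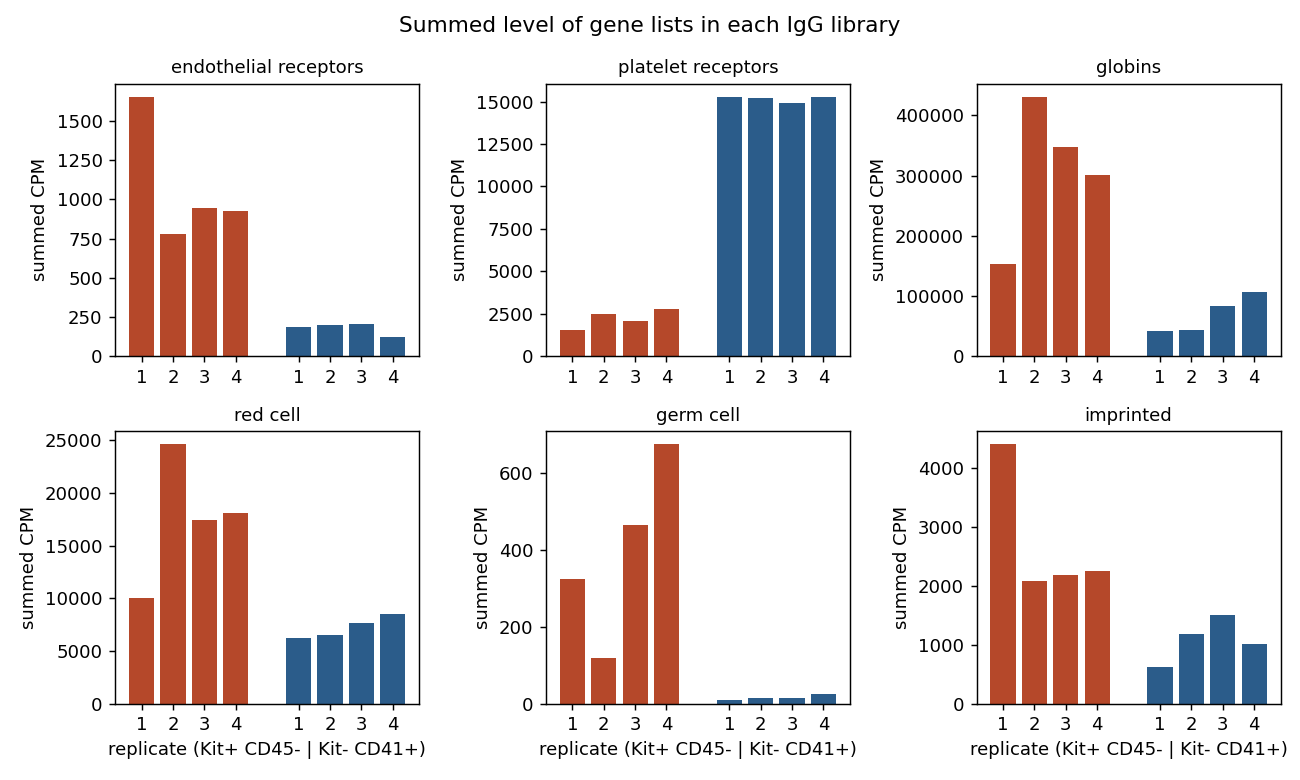
Summed CPM of 6 gene lists in each IgG library, Kit+ CD45- replicates 1 to 4 on the left and Kit- CD41+ replicates 1 to 4 on the right of each panel. Kit+ CD45- replicate 1 is highest for endothelial receptors (1657 CPM) and imprinted genes (4407) and lowest for globins and platelet receptors, and germ cell genes are lowest in replicate 2 (118.7).

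Markers of other cells were mixed, and some of their summed levels did not overlap between the groups. Of 20 macrophage genes 2 were called higher (0 without Kit- CD41+ replicate 2 or 3, and 1 without Kit+ CD45- replicate 1 or 4 or Kit- CD41+ replicate 1 or 4) and 3 lower; the defining genes C1qa, C1qb, C1qc, Adgre1 and Fcgr1 had means of at most 0.383 CPM in either group, and the summed level of the list (57.2 to 128 CPM in Kit+ CD45-, 638 to 875 in Kit- CD41+) came mainly from Fcer1g, which platelets use with Gp6. Fcer1g stood at 69.5 ± 28.3 CPM against 632 ± 78.5 and Lyz2, lysozyme, at 20.8 ± 11.1 against 102 ± 17.5 (SD, n = 4). The mast cell list had 3 tested members, 1 of them called (Gata2, lower). Of 14 granulocyte and monocyte genes 5 were called higher and 2 lower; Mpo, its main enzyme, stood at a mean of 8.77 against 5.22 CPM and was not called. Of 7 lymphoid genes 3 were called higher and 1 lower (0 lower without Kit+ CD45- replicate 1, 3 or 4 or Kit- CD41+ replicate 2, 3 or 4), among the higher Lck, a kinase of T cells, at 40.5, 13.8, 13.6 and 22.7 CPM against 0.77, 2.3, 3.21 and 3.22. Of 20 mesenchyme genes 1 was called (Fbln1, higher) and of 18 epithelial, liver and neural genes 2 (Apoa1 and Stmn2, higher), with summed levels of 105.2 to 262 against 71.0 to 265 CPM and of 95.6 to 225 against 70.2 to 194. These 2 lists overlapped between the groups. The summed levels of the granulocyte and monocyte list (85.4 to 121 against 157 to 187 CPM), the mast cell list (15.2 to 27.8 against 29.0 to 44.6) and the lymphoid list (39.5 to 81.0 against 16.9 to 32.9) did not; the part of any such cells in the other results was not tested. Lyz2 is also a member of the granulocyte and monocyte list, called lower. The median log2 fold change of that list was 1.30 although its summed level was lower.

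Imprinted genes of fetal growth had 11 of 22 members called higher and 0 lower (median 0.78). The linked genes Igf2, a growth factor, and H19, a non-coding RNA, moved together: Igf2 stood at 241, 147, 161 and 140 CPM against 9.07, 30.1, 45.6 and 32.3, and H19 at 318, 335, 295 and 308 against 36.8, 56.2, 101 and 73.7. Plagl1, a zinc finger factor, stood at 91.5, 32.8, 39.3 and 55.4 CPM against 4.79, 8.41, 9.22 and 7.21 (log2 fold change 2.89, SE 0.27, edgeR adjusted p = 2.64e-08). Mest (1.74), Rian (2.48), Meg3 (1.95), Igf2r (2.06) and Phlda2 (3.38) were also called higher, and Dlk1 (0.31) and Cdkn1c (0.69) were not. Endothelial receptor genes moved with this list across the Kit+ CD45- libraries, replicate 1 being highest in both, and the part of the one in the other was not tested.

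Some cell cycle genes were called higher in Kit+ CD45- cells, most of them by less than 1 on the log2 scale. Of 34 S phase genes 15 were called higher and 1 lower (median 0.45), the count higher was 8, 6 and 8 without Kit+ CD45- replicates 1, 2 and 4, and 6 and 9 without Kit- CD41+ replicates 3 and 4. Of 35 G2 and M phase genes 13 were called higher and 0 lower (median 0.37), and 14 were called higher without Kit+ CD45- replicate 1. Ect2, which places the cleavage furrow, stood at 85.5, 66.3, 72.2 and 62.3 CPM against 24.6, 32.3, 18.5 and 36.3, and Kif23, a kinesin of the midbody, had a log2 fold change of 1.09 (SE 0.19). Cdk1 (0.20), Ccnb1 (0.20) and Plk1 (0.10), which drive entry into mitosis, were not called. The largest change among 22 cyclins and inhibitors was a fall: Cdkn2d, an inhibitor of Cdk4 and Cdk6, stood at 74.1, 160, 153 and 161 CPM against 722, 713, 738 and 704 (log2 fold change -2.39, SE 0.19, edgeR adjusted p = 5.33e-09). Rb1 (-0.81) was the other lower member, and Myc (1.26) was higher.

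Metabolic lists differed in kind. Of 32 cholesterol genes 15 were called lower and 3 higher (median -0.52). Stard4, a sterol carrier, was among the 15, and the others are enzymes of synthesis. Stard4 stood at 70.3, 59.3, 63.3 and 69.7 CPM against 157, 128, 146 and 168 (log2 fold change -1.19, SE 0.17, edgeR adjusted p = 1.12e-05). All 3 higher members, Abca1, Abcg1 and Npc1, move cholesterol out of cells or out of lysosomes, and Abca1 stood at 16.1, 6.7, 11.8 and 15.5 CPM against 1.11, 0.797, 0 and 0.555. The regulators Srebf1 (-0.11), Srebf2 (-0.04) and Insig1 (-0.16) were not called. Of 30 glycolysis and hypoxia genes 10 were called lower and 1 higher (median -0.35). The glucose transporter Slc2a3 stood at 139, 122, 184 and 136 CPM against 845, 499, 612 and 465, while the glucose transporter Slc2a1 (0.44), and Hif1a (-0.08) and Vegfa (-0.33) were not called; Adm was the member called higher. Of 34 oxidative phosphorylation genes 1 was called (Uqcrfs1, 0.35, edgeR adjusted p = 0.045, and lost without 7 of the 8 libraries) and of 7 mitochondrial genome genes 0. At an unadjusted p under 0.05 edgeR had 3 of the 34 and 0 of the 7.

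Of 20 interferon genes 3 were called higher and 4 lower (median -0.25). Ifitm1, a membrane antiviral protein that germ cells also make, stood at 78.1, 30.4, 149 and 104 CPM against 0.0855, 1.86, 3.61 and 5.33, and Isg15, a ubiquitin-like modifier, at 0.277, 1.91, 2.13 and 1.01 against 26.4, 10.3, 18.2 and 12.3. Usp18, which removes Isg15 from proteins, was lower with it (-4.16), and Irf7 (-1.77) and Ifitm3 (0.87) were not called. Of 26 NF-kB genes 5 were called higher and 1 lower (3 higher without Kit+ CD45- replicate 1); Icam1, an adhesion molecule of endothelium, stood at 63.0, 12.2, 27.0 and 32.0 CPM against 2.31, 2.48, 1.3 and 1.44. Of 32 immediate early genes 5 were higher and 4 lower (3 higher without Kit+ CD45- replicate 1, Kit- CD41+ replicate 1 or Kit- CD41+ replicate 4), and Fos (0.45), Jun (-0.65) and Egr1 (-0.58) were not called. Of 16 glucocorticoid responsive genes 7 were higher and 0 lower (median 1.10; 5 higher without Kit+ CD45- replicate 1 or Kit- CD41+ replicate 4), in medium that held hydrocortisone for both populations. Sgk1, a kinase, stood at 116, 26.8, 38.8 and 67.3 CPM against 8.38, 11.4, 12.9 and 10.9, and the metallothionein Mt2 at 405, 1264, 1032 and 913 against 107, 138, 232 and 184. Fkbp5 (1.29) was called and Tsc22d3 (-0.14) and Per1 (-0.57), 2 other targets of that receptor, were not. The antisense gene Gm45774 overlaps Mt2 and shares its place, so reads of the 2 may not be told apart; whether counting used strand is not given in the sources used here.

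Of 28 p53 and apoptosis genes 6 were called higher and 7 lower. Trp53 stood at 201 ± 35.9 CPM against 97.3 ± 9.71 and Bcl2l11, the death protein Bim, at 17.7 ± 6.85 against 2.33 ± 1.57, while the effector targets Cdkn1a (0.24) and Bax (0.12) were not called. Of 20 integrin genes 4 were higher and 6 lower: Itga1, a collagen and laminin receptor chain, stood at 9.22, 5.06, 10.8 and 10.1 CPM against 0.257, 0.885, 0.501 and 0.333, and Itgb3 at 11.8, 43.2, 55.7 and 65.2 against 404, 366, 389 and 380. Itga2b, on which the Kit- CD41+ cells were sorted, is among the 6. Of 23 genes of receptor kinase feedback 7 were higher and 2 lower; Rasgrp3 stood at 66.3, 29.7, 35.9 and 38.6 CPM against 0.684, 1.15, 3.31 and 0.666. Of 24 transporters 7 were higher and 4 lower, with Slc39a8, a zinc and manganese importer, at 195 ± 38.2 CPM against 43.1 ± 7.31 and Slco3a1, an organic anion carrier, at 19.1 ± 10.9 against 2.37 ± 1.31 (SD, n = 4).

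By absolute level, the genes outside the globins that differed most included genes of iron storage and peroxide removal on the higher side and of the actin cytoskeleton on the lower. Fth1, ferritin heavy chain, stood at 9964 ± 3747 CPM against 4241 ± 1076 and Gpx1, a peroxidase, at 5777 ± 2123 against 2148 ± 608 (SD, n = 4), with Car2, Prdx2, Mt1, Alas2 and Prdx6 also in the list. Tmsb4x, thymosin beta 4, stood at 3286, 3512, 4718 and 3970 CPM against 15180, 16600, 17660 and 20240, and Actb, beta actin, at 2589 ± 222 against 5719 ± 159 (log2 fold change -1.14, SE 0.10, edgeR adjusted p = 1.08e-08). Pf4, Rap1b, Ppbp and Pfn1 were also among the 8. Malat1 and the overlapping Gm37376 lie on opposite strands and were lower by the same amount (-1.13 and -1.14), so their reads may not be told apart.

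The 8 anti-Dll4 libraries of the same populations share no sample with the 8 described. There 4672 genes (29.9%) passed the same test, 2291 higher and 2381 lower; under upper-quartile scaling these were 3147 and 1986. Of the 4357 genes called under IgG, 4298 (98.7%) had the same direction, and 3291 were called in both with the same direction. These are 75.5% of the IgG calls and 70.4% of the anti-Dll4 calls, and 0 genes were called in opposite directions. The share with the same direction over all genes tested was not computed. Genes called under IgG lean towards large changes, so the 98.7% has no background to be read against. Across the 15618 genes Pearson's r of the 2 log2 fold changes was 0.788 and Spearman's rho 0.773, over genes, which are not independent replicates, and from a fit that shares its estimate of spread. Cdh5 had a log2 fold change of 5.64 there, Ramp2 of 4.96, Gp9 of -4.43, Pf4 of -4.81, Hbb-y of 2.08 and Runx1 of -2.04. For Gp9 and Pf4 the anti-Dll4 values were further from 0, and neither gene passed the test of the difference.

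The difference of the contrast between antibodies was tested directly over all genes. By the edgeR test 0 genes passed (0% of genes tested) and 596 had an unadjusted p under 0.05. DESeq2 called 5, over a larger set of 29679 genes without the filter on low counts. Flt4 had the smallest edgeR adjusted p, 0.0997: it stood at 12.8 ± 3.15 CPM in Kit+ CD45- and 0.0214 ± 0.0428 in Kit- CD41+ libraries under IgG, and at 8.34 ± 2.00 and 0.733 ± 0.387 under anti-Dll4 (SD, n = 4). Tdrd7, Enpp2, 4931440F15Rik and Ndp followed, with edgeR adjusted p of 0.379 to 0.817. Enpp2, autotaxin, stood at 9.39 ± 5.38 against 3.15 ± 1.92 CPM under IgG and at 8.38 ± 4.18 against 0.0753 ± 0.151 under anti-Dll4, and its IgG call (edgeR adjusted p = 0.0347) was lost without any of Kit+ CD45- replicates 2 and 3 and Kit- CD41+ replicates 1, 2 and 4 (0.057 to 0.12).

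**Figure D5:**
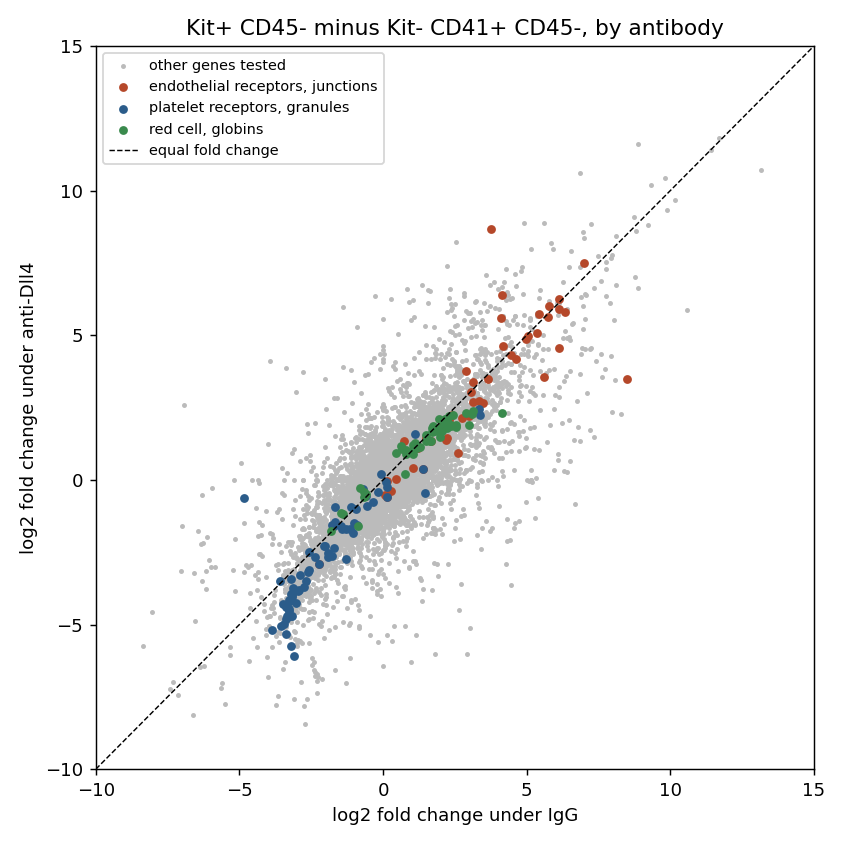
Log2 fold change (Kit+ CD45- minus Kit- CD41+) of each of the 15618 genes under IgG (x axis) and under anti-Dll4 (y axis), with 3 groups of list members in colour and the dashed line at equal values. Endothelial and red cell genes lie near the line, and most platelet receptor and granule genes lie below it.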

How the data were processed

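Counts per gene were deposited by the authors as raw whole numbers for 24 libraries. A second table deposited by the authors holds log2 values; these equal log2 of count divided by size factor, plus 1, within 5.2e-14, and served only for that check and for gene names and positions. The tools listed are STAR, HTSeq, DESeq2, FastQC and CASAVA 1.4 and the build mm10, per the submitters' processing notes; for their roles, the strand setting and the annotation release nothing is given in the sources used here. The count table has 1 column of no listed sample, which was not used. Genes were filtered with edgeR's filterByExpr by group, scaled by TMM and tested with edgeR 4.0.16 (R 4.3.3), quasi-likelihood with robust dispersion, 6 group means and 18 residual degrees of freedom over the 24 libraries, with Benjamini-Hochberg adjustment over all 15618 genes tested. SE is the absolute log2 fold change divided by the root of F. The biological coefficient of variation was 0.343. On simulated counts for this comparison (15096 genes) the test recovered 48 of 100 genes changed by 1 and 89 of 100 changed by 2 on the log2 scale, with 3 false calls. Only these genes were changed there, and they were drawn from genes above a minimum count. In the data 27.9% of genes were called, so these rates need not hold for the data. A floor is 3 counts per library and, since reads carry no molecular identifiers, covers counting error only. The main fit did not pair libraries by replicate number, and same-numbered deviations correlated by at most 0.033. Whether same-numbered libraries came from the same sort is not given in the sources used here. Named genes are the gate antigens and markers; in each list with 5 or more tested members up to 4 called members of smallest p whose higher group reached 5 CPM, and any called member against the list's majority; over all genes the 15 largest called changes in each direction at 20 CPM or more whose groups do not overlap, predicted models left out; the 8 largest differences in CPM in each direction, globins left out; and the 5 smallest p for the antibody difference. Members that did not pass are named only to say so, and other genes shown were chosen after their values were seen. The libraries, the 43 gene lists and the genes shown were chosen with earlier results of these data known. Alternatives were other scalings (RLE, upper quartile, globins left out), other filters, DESeq2 1.42.0, the replicate block, fewer libraries, a test against a fold of 1.5, and leaving out each library. A few list members are not reported here.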

Additional observations from a re-analysis of the deposited data

Results flagged for a closer look

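In groups of 4 libraries, Dixon's test compared the gap of the highest or lowest library with the range of its group. Of 232 groups examined 15 passed (6.47%). The nominal rate of 5% holds for independent, normally distributed values. It does not apply to these CPM values, which are correlated between genes and include genes chosen after their values were seen. A group with every other library at 0 always passes, as for Flt4 and Hlf in Kit- CD41+ libraries. Kit+ CD45- replicate 1 accounted for 9 of the 15. It was the highest of its group for the summed level of imprinted genes (4407 CPM, the others 2084 to 2248) and of lymphoid genes (80.97, the others 39.5 to 46.5), and for the endothelial genes Cdh5 (46.85 CPM), Aplnr (84.11), Emcn (523.9), Sox18 (111.7), Dll4 (22.87) and Efnb2 (29.51). It was the lowest for the inhibitor Cdkn2d, at 74.06 CPM with the others at 152.8 to 161.

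The other 6 were in 4 libraries. Kit- CD41+ replicate 1 was the highest of its group for the summed platelet signalling genes (18460 CPM, the others 16920 to 17060), for Rab27b (1986 CPM, the others 1435 to 1510) and for Flt4 (0.08554 CPM, 1 count, with the others at 0). Kit- CD41+ replicate 2 was highest for Dll4 (0.7084 CPM) and replicate 3 for Hlf (0.3005 CPM), both under 1 CPM. Kit+ CD45- replicate 2 was highest for P2ry12, at 7.655 CPM with the others at 0 to 1.26.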

How the results depend on the processing

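The counts of genes called higher and lower under IgG and under anti-Dll4 stayed within 1.5 times under every alternative but the test against a fold of 1.5, which called 2219 genes under IgG (14.2%; 1104 higher, 1115 lower). Leaving out each of the 8 libraries gave 3535 to 4097 calls under IgG (1699 to 2013 higher, 1836 to 2084 lower) and 3870 to 4434 under anti-Dll4 (1772 to 2146 higher, 2098 to 2290 lower). The difference between antibodies had 0 to 1 calls when any of the 16 libraries was left out (1 without Kit- CD41+ anti-Dll4 replicate 3). Under DESeq2, which tested a larger set of 29679 genes, it had 5. The cause was not tested. With the replicate number as a block 4615 genes were called under IgG over all 24 libraries. Over the 8 alone the count was 3412 with the block and 3851 without it. Same-numbered deviations correlated by -0.026 to 0.033, and no library of the 8 correlated best with its own number. Deviations within such small groups cannot decide whether same-numbered libraries came from the same sort. Over all genes the median log2 fold change was 0.06 and became 0.16 with upper-quartile scaling, so changes smaller than that shift depend on the scaling. For the 241 named genes 4165 of 4324 alternative values kept their direction and their side of the threshold, 159 kept their direction but no longer passed, and 0 reversed. Most of these genes were chosen for a small p or a large change in these same libraries. Their counts therefore do not show how well calls of other genes hold. The test against a fold of 1.5 keeps the same fold changes and could reverse none. The medians of the 43 lists had 773 alternative values, of which 738 moved by less than a yardstick and 35 by more. That yardstick was the SD of the difference in mean log2 level between same-numbered Kit+ CD45- and Kit- CD41+ libraries. The motif shares of genes past the fold of 1.5 were not run, since promoters were found for under 80% of the genes called higher. At low counts (a few per library, as for Hlf, Flt3 and P2ry12) depth limits the size of a change.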

Other observations

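In several gene families 1 member was called higher and another lower in Kit+ CD45- cells; these pairs were chosen after their values were seen and no test of the pairing was made. Rasgrp3 and Rasgrp2, exchange factors for Ras and Rap GTPases, had log2 fold changes of 4.88 and -3.15 (SE 0.42 and 0.29). Among kinases of the protein kinase C family Prkch stood at 22.8 ± 9.66 CPM against 1.21 ± 0.767, and Prkcq at 53.4 ± 15.7 against 391 ± 79.3 (SD, n = 4). Adaptors of focal adhesions split likewise: Pxn stood at 11.5 ± 8.66 CPM against 3.39 ± 0.653 and its relative Tgfb1i1 at 69.1 ± 16.6 against 468 ± 50.2. The parvins Parva (1.78) and Parvb (-2.18), the TGF-beta ligands Tgfb2 (1.58) and Tgfb1 (-2.07), the survival proteins Bcl2 (1.81) and Bcl2l1 (-1.17) and the small Maf factors Maff (1.51) and Mafg (-1.10) were also called in opposite directions.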
